A study of Homo sapiens with 9 samples.

Results

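The TET dioxygenase genes TET1, TET2 and TET3 were examined for HIF-1α binding in SK-N-BE(2), an established human neuroblastoma cell line with amplified MYCN. Chromatin immunoprecipitation with sequencing (ChIP-seq) against HIF-1α had been done on cells held for 48 hours at 1% oxygen (hypoxia, 3 libraries) or at 21% oxygen (normoxia, 3 libraries), and 3 input libraries came from 21% oxygen. The line carries the same MYCN amplification in both groups, so neither group shows HIF-1α binding without it. The members are the rows of the 6 deposited peak lists whose summit, the position of highest signal in a called interval, falls in a window around one of the 3 genes. On hg19 the windows run from 70.27 to 70.50 Mb on chromosome 10 for TET1, from 106.02 to 106.25 Mb on chromosome 4 for TET2 and from 74.22 to 74.39 Mb on chromosome 2 for TET3. They held 10 of the 16463 summits in the series, which form 5 of its 9420 regions on the autosomes, X and Y, a region being the intervals of any lists that share at least 1 bp. All 10 came from hypoxia libraries. The labels do not state whether each library had its own culture; the p-values below therefore reflect library-to-library spread, which could be technical only. The title of the series places it in work on MYCN, TET1, 5-hydroxymethylcytosine and hypoxia in neuroblastoma; the comparison asks whether and where HIF-1α is found at the TET genes when oxygen is low.

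TET enzymes oxidise 5-methylcytosine in DNA to 5-hydroxymethylcytosine and further products, a route by which methylation is removed. They need iron, 2-oxoglutarate and molecular oxygen, as do the prolyl hydroxylases that mark HIF-1α for degradation in oxygenated cells. TET1 and TET3 can carry a CXXC zinc finger that binds unmethylated CpG, whereas in TET2 that domain has become a separate gene, CXXC4. TET1 is also transcribed from an internal start, which gives a shorter protein without the CXXC domain. HIF-1α pairs with ARNT and binds the hypoxia response element, whose core is ACGTG or GCGTG.

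RefSeq promoters show which TET starts carry that core. The table of GRCh38.p14 promoters, 250 bases before to 50 after each start, matched all 3 genes by symbol and lists 7 starts: 3 for TET1, 2 for TET2 and 2 for TET3. ACGTG and GCGTG were searched on both strands, where they read CACGT and CACGC, and CACGTG, also the E-box that MYC proteins bind, counts once on each strand. The promoters shown are the first starts of the 3 genes and those later starts that hold a match, all on the plus strand, with matches in capitals. They lie at chr10:68560087-68560386, chr10:68600018-68600317, chr4:105145625-105145924, chr4:105146626-105146925 and chr2:73984660-73984959 on GRCh38.p14.
TET1 start 1: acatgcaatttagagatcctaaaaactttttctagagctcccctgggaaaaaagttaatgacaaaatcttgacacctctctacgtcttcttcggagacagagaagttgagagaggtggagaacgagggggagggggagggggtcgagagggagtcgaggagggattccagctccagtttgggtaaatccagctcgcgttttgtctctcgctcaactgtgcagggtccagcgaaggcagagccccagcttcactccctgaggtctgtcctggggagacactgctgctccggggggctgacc
TET1 start 2: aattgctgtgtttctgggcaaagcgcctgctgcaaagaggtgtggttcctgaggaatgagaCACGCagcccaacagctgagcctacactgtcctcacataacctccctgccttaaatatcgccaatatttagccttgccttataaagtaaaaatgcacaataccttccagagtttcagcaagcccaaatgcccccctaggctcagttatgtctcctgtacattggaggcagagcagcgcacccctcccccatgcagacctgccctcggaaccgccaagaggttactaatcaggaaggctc
TET2 start 1: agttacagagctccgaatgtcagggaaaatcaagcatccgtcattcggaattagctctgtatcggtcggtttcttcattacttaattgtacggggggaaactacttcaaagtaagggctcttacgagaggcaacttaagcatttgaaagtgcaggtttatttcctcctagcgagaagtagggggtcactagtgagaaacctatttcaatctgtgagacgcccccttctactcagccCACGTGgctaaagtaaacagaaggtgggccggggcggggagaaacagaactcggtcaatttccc
TET2 start 2: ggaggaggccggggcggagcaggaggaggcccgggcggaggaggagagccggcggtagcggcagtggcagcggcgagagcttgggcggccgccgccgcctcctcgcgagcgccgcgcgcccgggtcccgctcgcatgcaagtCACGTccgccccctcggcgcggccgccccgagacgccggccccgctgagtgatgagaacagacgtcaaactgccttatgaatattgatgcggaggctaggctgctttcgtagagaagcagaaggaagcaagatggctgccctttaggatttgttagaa
TET3 start 1: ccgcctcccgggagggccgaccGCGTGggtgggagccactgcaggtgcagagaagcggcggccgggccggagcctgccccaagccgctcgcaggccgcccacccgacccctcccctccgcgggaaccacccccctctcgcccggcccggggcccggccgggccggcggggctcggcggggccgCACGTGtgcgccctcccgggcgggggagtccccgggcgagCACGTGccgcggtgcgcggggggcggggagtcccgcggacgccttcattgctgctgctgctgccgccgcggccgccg

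At least 1 match stood in 4 of the 7 TET promoters, against 48.4% of the 35116 promoters in the table. The first TET1 start had 0 matches and the second had 1, a CACGC whose first base lies at −189 from the start. The first TET2 start had a CACGTG from −14, the second a CACGT from −108. The first TET3 start had 5 matches, a GCGTG from −228 and CACGTG from −67 and from −27; 1.98% of all promoters had at least 5. Whether the TET3 window on hg19 includes this first start was not determined, so the TET3 counts may not cover it. The last TET1 start and the second TET3 start had 0. CACGTG, present in 7.26% of all promoters, stood in the first TET2 promoter and the first TET3 promoter. These matches describe the letters in the windows and are not binding sites. The files use hg19 and no hg19 annotation was used here, so the distance of a summit to a gene start is not given; the promoters on GRCh38.p14 and the summits on hg19 were not placed on 1 scale.

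HIF-1α was called in TET windows in every hypoxia library and in no normoxia library. Hypoxia 1, 2 and 3 had 1, 4 and 5 TET summits, a mean of 3.33 ± 2.08 (SD, n = 3), and normoxia 1, 2 and 3 had 0 each. The groups did not overlap. For the difference of 3.33 the two-sided exact permutation p was 0.1, and a comparison of 3 with 3 cannot give a smaller one. Hypoxia 1 stands apart from normoxia by a single call, and the exact permutation p was 0.4 with −log10 q of at least 5, with folds of at least 6 or with windows narrowed by 40 kb on each side, each of which leaves hypoxia 1 with 0. The lists behind these counts also differ in length. TET summits were 1 of 1986, 4 of 6151 and 5 of 8039 summits in hypoxia 1, 2 and 3. In the much shorter lists of normoxia 1, 2 and 3 they were 0 of 86, 0 of 44 and 0 of 157. Of consecutive tiles over the autosomes, X and Y, 0.849% at 230 kb and 0.639% at 170 kb held a summit in any normoxia list. A normoxia count of 0 is thus usual for a tile of either length. How often 3 such tiles together have a call in every hypoxia library and none in normoxia was not counted. Depth was similar, with 5.31 to 6.62 background reads per kb in hypoxia and 6.02 to 6.69 in normoxia, while the shortest interval of a list, taken as its fragment extension, was 155 bp in hypoxia 2 and 167 bp in hypoxia 3 but 46 to 48 bp in the other 4 libraries. The part of list length and extension in the TET counts was not tested.

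By window, the 5 regions split into 2 for TET1, 1 for TET2 and 2 for TET3, numbered here from the lower coordinate. Each is named after its window alone, and whether the upper TET3 region lies in TET3 was not determined. A call in at least 2 hypoxia libraries was present at 4 of the 5, against 44.0% of the 9395 regions of the series with any hypoxia call; without hypoxia 2, or without hypoxia 3, that count was 1. A call in all 3 hypoxia libraries was present at 1 of the 5, against 11.5% of the 9395. None of the 5 had a normoxia call, which is the background for hypoxia regions, since 98.8% of the 9395 had none either.

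**Figure D1:**
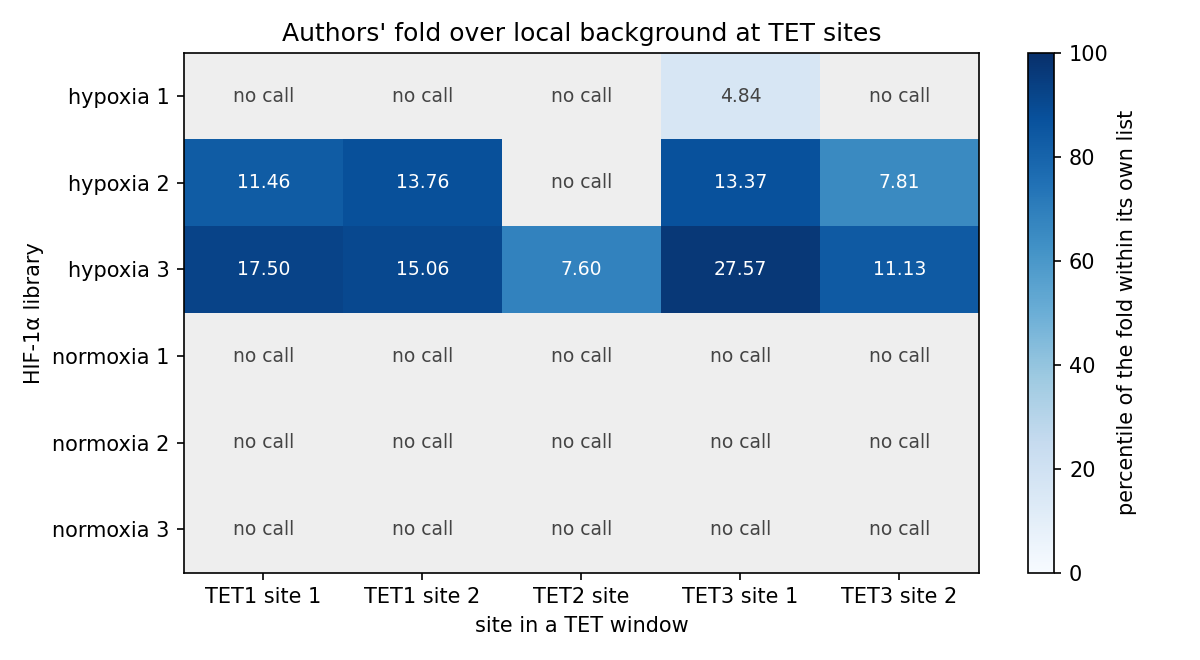
Authors' fold over local background at each TET site (columns) in each library (rows), hypoxia libraries above normoxia libraries. Numbers are folds, shading is the percentile of that fold within its own list, and grey cells have no call. Hypoxia 3 has a call at all 5 sites, hypoxia 2 at 4, hypoxia 1 at TET3 site 1, and the normoxia libraries at 0.

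TET1, the family member after which the enzymes are named, had HIF-1α at a pair of sites in hypoxia 2 and hypoxia 3. Its window held 0, 2 and 2 summits in hypoxia 1, 2 and 3 and 0 in each normoxia library, a mean of 1.33 ± 1.15 against 0 (SD, n = 3 each; exact permutation p = 0.4). The groups overlap at the value 0, which hypoxia 1 shares with the normoxia libraries. Of consecutive 230 kb tiles laid over chromosomes 1 to 22, X and Y, 25.8% held a summit in hypoxia 2, 29.0% in hypoxia 3 and 7.56% in hypoxia 1, while 0.849% held one in any normoxia list. At least 2 regions called in at least 2 hypoxia libraries, as at TET1, were found in 6.33% of these tiles and at least 1 in 20.0%. The tiles include gene-poor and unsequenced stretches.

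TET1 site 1 spans positions 70321152 to 70321492 of chromosome 10. Its fold was 11.5 in hypoxia 2 and 17.5 in hypoxia 3, with −log10 q values of 18.1 and 34.7. Those folds lay above 83.2% of the summits in the hypoxia 2 list and above 92.5% of those in the hypoxia 3 list. The site was therefore among the stronger calls of both lists, ranked 1030 of 6115 and 589 of 7982 on the chromosomes compared. The summits fell at 70321324 in hypoxia 2 and 70321338 in hypoxia 3, 14 bp apart, whereas the median over the 4074 regions called in both lists was 26 bp. The summit rested on 21 reads in hypoxia 2 (exact 95% Poisson interval 13.0 to 32.1) and on 32 in hypoxia 3 (21.9 to 45.2), intervals that overlap and cover counting error only.

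TET1 site 2 spans positions 70359990 to 70360479 and was the widest of the 5 regions at 490 bp. Its fold was 13.8 in hypoxia 2 and 15.1 in hypoxia 3, above 87.9% and 90.3% of the summits in those lists. The intervals of 450 and 490 bp were longer than 87.6% of the hypoxia 2 intervals and 89.6% of the hypoxia 3 intervals, each with a single summit. The summits fell at 70360348 and 70360322, 26 bp apart, and toward the upper end of the interval. The reads were 35 in hypoxia 2 (24.4 to 48.7) and 31 in hypoxia 3 (21.1 to 44.0). In hypoxia 2 site 2 had more reads than site 1 and in hypoxia 3 about as many, but the intervals overlap in both libraries, so the data do not order the TET1 sites.

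The TET1 summits lay 39024 bp apart in hypoxia 2 and 38984 bp apart in hypoxia 3 on hg19. The first and second TET1 starts of RefSeq lie 39931 bp apart on GRCh38.p14, and the first and last 40137 bp. Each distance was measured within its own build, and no summit was set against a start. The spacings are unequal and do not place either site at a start.

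**Figure D2:**
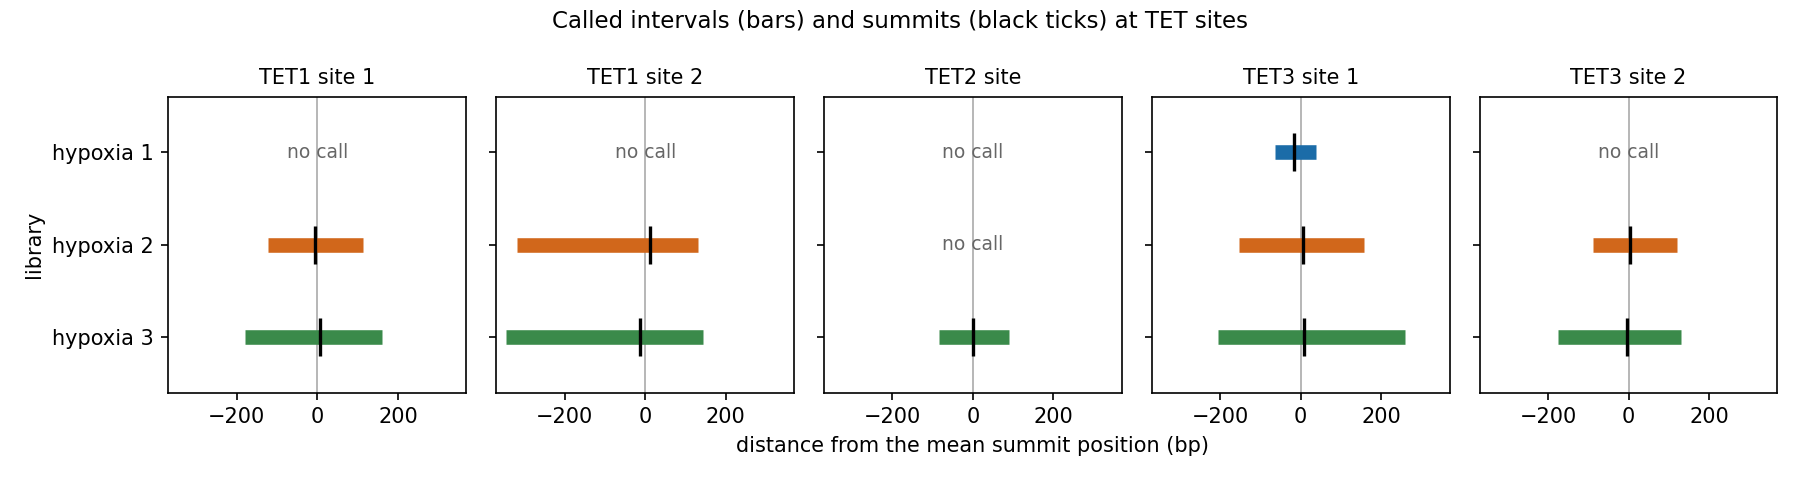
Called intervals (bars) and summits (black ticks) of the 3 hypoxia libraries at each TET site, as distance in bp from the mean summit position of that site. Summits of different libraries fall within 26 bp of each other at every shared site, and at TET1 site 2 the interval reaches further below the summit than above it.

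Hypoxia 1 lacked the TET1 calls of the other hypoxia libraries. Its list is shorter throughout, with 1924 summits on the chromosomes compared, against 6115 in hypoxia 2 and 7982 in hypoxia 3. Ranked by mean fold percentile in hypoxia 2 and hypoxia 3, both TET1 sites and TET3 site 1 fell in the highest-ranked 1019 of the regions those lists share. Of these 1019 regions, 72.0% also had a call in hypoxia 1, as TET3 site 1 had, while the TET1 sites had none. At its genome-wide background hypoxia 1 needed 5 reads at a summit for a call, with the lowest −log10 p of its list as the limit. Its local background at TET1 is not in the lists. Reads of hypoxia 2 and hypoxia 3 were counted with longer extensions and cannot be scaled to hypoxia 1.

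TET2, the member most often mutated in blood cancers, had 1 HIF-1α summit, in hypoxia 3. The window held 0, 0 and 1 summits in hypoxia 1, 2 and 3 and 0 in each normoxia library, a mean of 0.333 ± 0.577 against 0 (SD, n = 3 each; exact permutation p = 1). The interval spans positions 106067879 to 106068052 of chromosome 4 and is 174 bp long, close to the shortest the hypoxia 3 list can hold (167 bp) and longer than 13.6% of its intervals. The summit at 106067963 had a fold of 7.60, above 68.1% of the list, a −log10 q of 8.96 and 14 reads (7.65 to 23.5). This is a mid-ranking call in the longest list, seen in 1 library only. Hypoxia 2 needed 7 reads for a call at its genome-wide background, and its reads at this position are not in the list. The nearest summit outside the window lay 380 kb above it and, on the other side, 608 kb below it, so the TET2 call stood alone.

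TET3 had the TET site that recurred in all hypoxia libraries. Its window held 1, 2 and 2 summits in hypoxia 1, 2 and 3 and 0 in each normoxia library, a mean of 1.67 ± 0.577 against 0 (SD, n = 3 each; exact permutation p = 0.1, the smallest possible). The groups did not overlap, but hypoxia 1 holds this only through a call with a −log10 q of 3.19, and with −log10 q of at least 5 or folds of at least 6 the exact permutation p was 0.4. Neither TET3 site remained in a window narrowed by 40 kb on each side. Among 170 kb tiles, 5.70% held a summit in hypoxia 1, 20.5% in hypoxia 2, 23.8% in hypoxia 3 and 0.639% in any normoxia list. A normoxia count of 0 is thus usual for such a tile. The share of tiles with a call in all 3 hypoxia libraries and none in normoxia was not counted. It cannot exceed the 5.70% of hypoxia 1. Regions called in at least 2 hypoxia libraries stood in 15.7% of these tiles, and at least 2 such regions, as in the TET3 window, in 4.49%. Whether TET3 site 2, the upper region of that window, lies in TET3 was not determined.

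TET3 site 1 spans positions 74259342 to 74259806 of chromosome 2. Its fold was 4.84 in hypoxia 1, 13.4 in hypoxia 2 and 27.6 in hypoxia 3. The fold in hypoxia 3 was the highest of any TET summit, above 96.8% of that list and ranked 254 of 7982. In hypoxia 2 it lay above 87.2% of the list, but in hypoxia 1 above only 16.0%. The low fold in hypoxia 1 went with raised background near the site, 5.31 times what that library had genome-wide, against 1.35 times in hypoxia 2 and 1.00 times in hypoxia 3. Over the genome-wide background, summit reads came to 37.8 times in hypoxia 1, 31.5 times in hypoxia 2 and 57.5 times in hypoxia 3. The fragment extensions of hypoxia 1 and of the other hypoxia libraries differ, so neither the folds nor these ratios are on 1 scale. The part of local background in the low rank in hypoxia 1 was not tested.

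The summits of TET3 site 1 fell at 74259532, 74259554 and 74259557 in hypoxia 1, 2 and 3, within 25 bp of each other, and those of hypoxia 2 and hypoxia 3 were 3 bp apart. The reads were 12 in hypoxia 1 (6.20 to 21.0), 29 in hypoxia 2 (19.4 to 41.7) and 51 in hypoxia 3 (38.0 to 67.1). Intervals of hypoxia 2 and hypoxia 3, the libraries with a long extension, overlap. Within hypoxia 3, TET3 site 1 had more reads than TET1 site 1 and TET1 site 2, whose intervals overlap its own. It also had more than TET3 site 2 and the TET2 site, whose intervals do not reach its own. Within hypoxia 2, TET3 site 1 lay between TET1 site 2 and TET1 site 1, with overlapping intervals throughout.

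A missing normoxia call at TET3 site 1 does not show that HIF-1α was absent. Normoxia lists share the short extension of hypoxia 1, so its 12 reads could be scaled to their depth and came to 12.1, 10.9 and 11.3 reads for normoxia 1, 2 and 3. Taking the lowest −log10 p in each list as its limit, a call at the genome-wide background needed 6 reads in each normoxia library. The lowest −log10 q was 1.65 in normoxia 2, against 1.30 in normoxia 1 and 1.35 in normoxia 3. That limit may therefore be too high for normoxia 2. With the local background raised 5.31 times, as at this site in hypoxia 1, a call needed 11 reads in each normoxia library. Under that raised background the scaled reads, 10.9 to 12.1, stood close to the 11 needed. They rest on 12 reads with an interval of 6.20 to 21.0, so they do not separate the normoxia libraries. The local background of the normoxia libraries at this site is not in their lists. If it was raised likewise, a signal weaker than in hypoxia 1 could go uncalled in any of them.

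**Figure D3:**
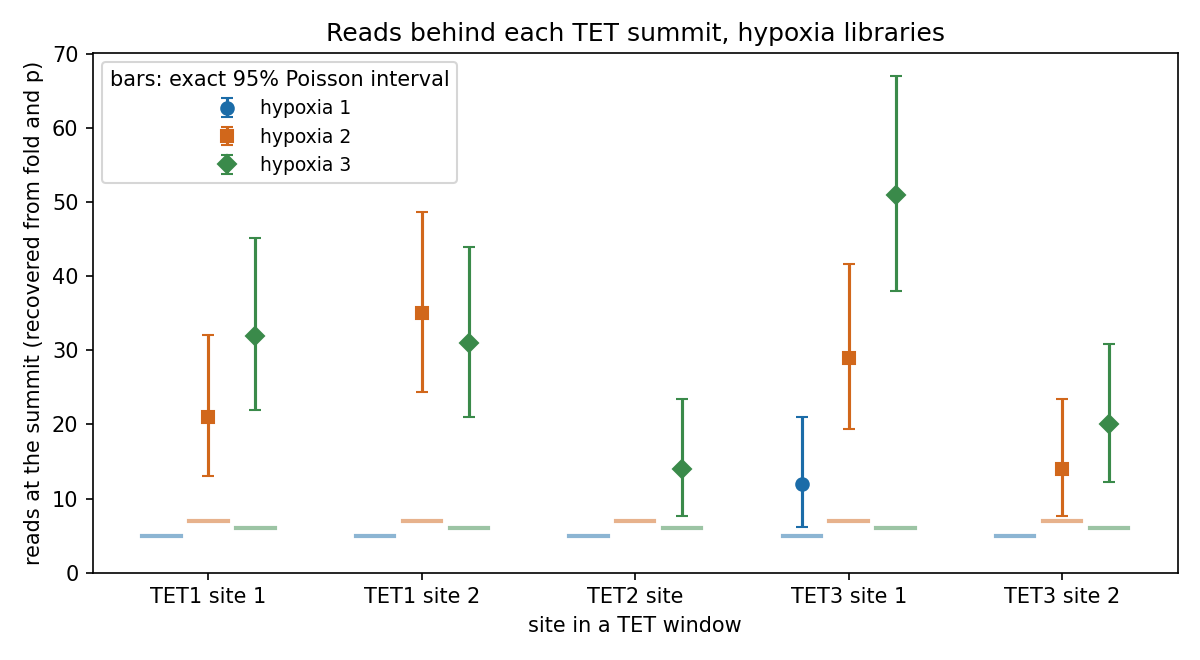
Reads at the summit of each TET site in hypoxia 1, 2 and 3, recovered from the authors' fold and p, with exact 95% Poisson intervals as error bars. Short horizontal lines mark the 5, 7 and 6 reads that hypoxia 1, 2 and 3 needed for a call at their genome-wide background. By construction no called summit can lie below its line.

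TET3 site 2 spans positions 74374856 to 74375161, near the upper edge of the window, with summits 14964 and 14973 bp below that edge in hypoxia 2 and hypoxia 3. It lay 115 kb from site 1. BOLA3, which takes part in maturing mitochondrial iron-sulfur proteins, is the next coding gene after TET3 in RefSeq. Whether site 2 lies in TET3 or in a neighbour was not determined on hg19, so its count as a TET3 site rests on the window alone. Its fold was 7.81 in hypoxia 2 and 11.1 in hypoxia 3, above 65.6% and 84.0% of the summits in those lists. The reads were 14 (7.65 to 23.5) and 20 (12.2 to 30.9). By mean fold percentile the site fell among the next 1018 of the shared regions, of which 22.4% had a call in hypoxia 1, and it had none.

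**Figure D4:**
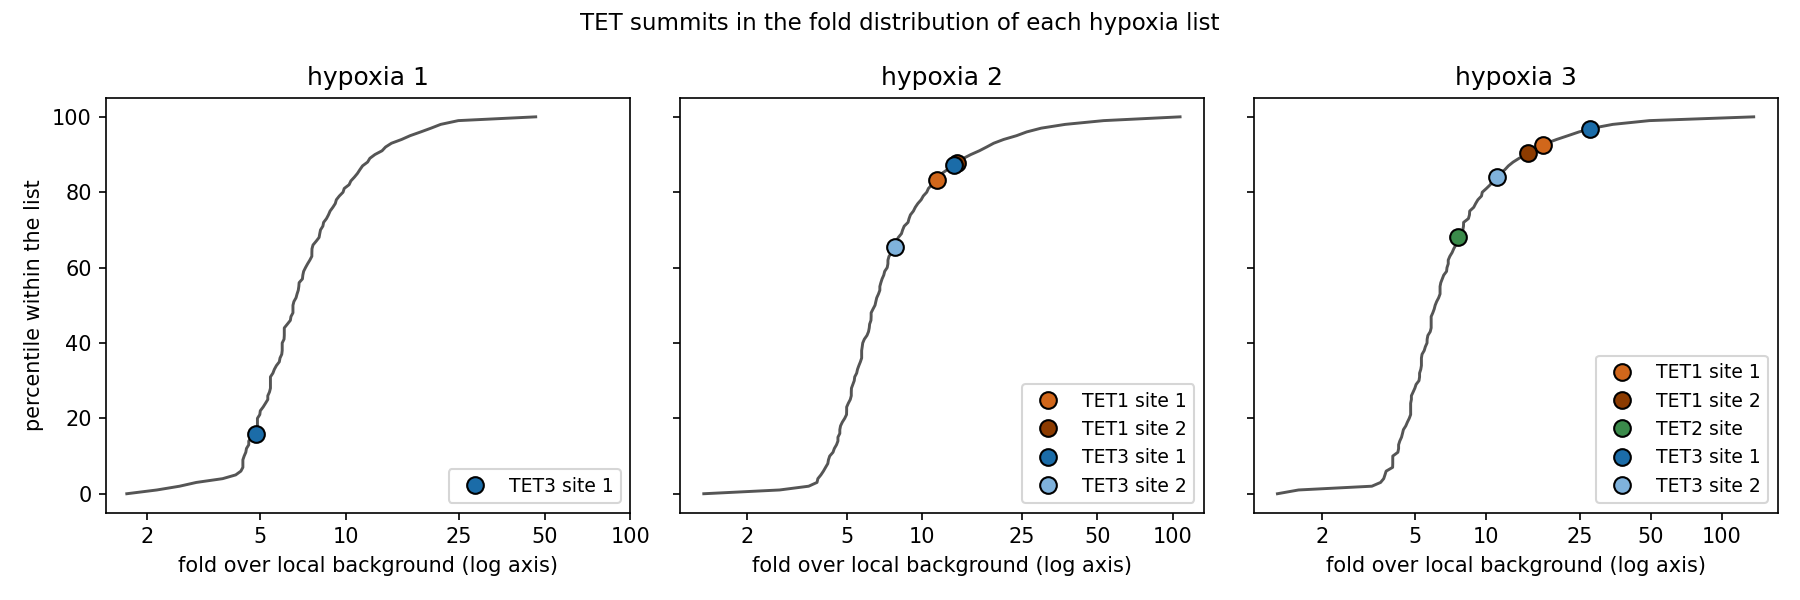
Cumulative distribution of the authors' fold in each hypoxia list (grey line; fold on a log axis, percentile on the vertical axis), with the TET summits as coloured points. In hypoxia 2 and hypoxia 3 the TET1 sites and TET3 site 1 lie between 83.2% and 96.8% of their list, TET3 site 2 and the TET2 site lower within the same list, and in hypoxia 1 TET3 site 1 lies at 16.0%.

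Ordered by fold, the TET sites followed each other differently in the libraries that called several. Hypoxia 2 ran from TET1 site 2 over TET3 site 1 and TET1 site 1 to TET3 site 2, hypoxia 3 from TET3 site 1 over TET1 site 1, TET1 site 2 and TET3 site 2 to the TET2 site. TET3 site 2 was below both TET1 sites and TET3 site 1 in each. Summit reads were divided by the genome-wide background of their library, and hypoxia 3 was set over hypoxia 2. The ratio was 1.58 at TET1 site 1, 0.919 at TET1 site 2, 1.83 at TET3 site 1 and 1.48 at TET3 site 2. Over the 4074 regions shared by these lists the median ratio was 1.11 (quartiles 0.890 and 1.36), so the ratio stood above the upper quartile at 3 of the 4 shared TET sites and between median and lower quartile at TET1 site 2. These are values of single libraries at similar but unequal extensions and carry no test.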

How the data were processed

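HIF-1α ChIP-seq peak lists of 3 hypoxia and 3 normoxia libraries were used and the 3 input libraries were not analysed here. BWA 0.7.17, MACS2 and build hg19 are named in the submitters' processing notes; the MACS2 version, its settings and any use of the inputs are not given in the sources used. Each deposited list belongs to 1 library. The deposited score column held 10 times the −log10 q, cut to a whole number. The deposited fold is a ratio of summit reads to local background. Values of −log10 p and of −log10 q were used as deposited; all describe a peak within its own list.

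Summits were placed by interval start plus offset and written 1-based. Ranks, tiles and regions were limited to the autosomes, X and Y. Regions joined intervals sharing at least 1 bp. Reads and local background were recovered from fold, as reads plus 1 over background plus 1, and the Poisson tail within 0.001 of −log10 p: 16463 of 16463 summits came out whole (100%). The smallest background of a list was taken as genome-wide and its shortest interval as fragment extension. Their quotient was the depth, whose few reads per summit limit precision. Reads needed for a call were the fewest that reached the lowest −log10 p of that list. Summit counts per library were compared by two-sided exact permutation tests, with the methods tested on simulated data. Python 3.11.15, scipy 1.17.1 and pandas 2.3.3 were used. Groups and replicate numbers came from sample titles. Members, windows and the named genes (TET1, TET2 and TET3) were chosen with earlier results of these data known. A list of related demethylation genes was not analysed, since it needs an hg19 annotation.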

Additional observations from a re-analysis of the deposited data

How the results depend on the processing

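With normoxia counts of 0, the difference in TET summits per library could not be negative, so its sign is no support. It was 3.00 with only −log10 q of at least 5 or only folds of at least 6 (exact permutation p = 0.4 each). The difference was 3.67 with windows widened by 100 kb and 1.67 with windows narrowed by 40 kb (exact permutation p = 0.4 when narrowed). With 1 library left out it was 2.50 to 4.50. At TET3 it was 0 in narrowed windows, which by construction lose both sites. At TET2 it ran from 0 to 0.5 with 1 library left out, and was 0 without hypoxia 3. Regions called in at least 2 hypoxia libraries, 4 in the main count, numbered 1 when all 3 had to call them, 2 in narrowed windows, and 1 to 4 with a library left out, with 1 without hypoxia 2 or without hypoxia 3. Genes with such a region, 2 in the main count, numbered 1 when all 3 had to call it, 1 in narrowed windows, and 1 to 2 with a library left out. With reciprocal overlap of at least 50% or summits within 150 bp the counts were 4 and 2. Pairing libraries by number, as a replicate block, left the differences as they were by construction: 3.33 over all windows and 1.67 at TET3 (exact sign-flip permutation p = 0.25 each, the smallest possible with 3 pairs), 1.33 at TET1 (p = 0.5) and 0.333 at TET2 (p = 1). All normoxia counts were 0, so these counts cannot show whether the numbers pair the libraries. Few reads per summit limit every single call.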

Other observations

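Outside the windows, the nearest summit to TET3 lay at 74198268 on chromosome 2, 21.7 kb below the window, with a fold of 4.81 in hypoxia 3 and no call in the other 5 libraries; whether it lies in or outside TET3 was not determined. Around TET1 the nearest summits, both from hypoxia 3, lay 178 kb below and 161 kb above the window, with folds of 4.77 and 4.81.

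The 5 regions whose fold percentiles in the 3 hypoxia lists were nearest to those of TET3 site 1 lay at chr1:109796113-109796563, chr11:60609357-60609682, chr16:80061022-80061453, chr7:127449414-127449864 and chr10:99649223-99649742. Their distance was 1.79 to 3.64 percentile points. By this choice each had a hypoxia 1 percentile of 12.8 to 17.1 beside 87.3 to 89.4 in hypoxia 2. None had a normoxia call, and neither had 98.8% of the 9395 regions with a hypoxia call. The base composition of the TET promoters differed, with 82.7% and 79.0% G or C at the TET3 starts, 47.7% and 68.0% at the TET2 starts and 51.7% to 55.3% at the TET1 starts.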
